A study of Rattus norvegicus with 9 samples.

Results

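The genes described here encode the molecular motors that carry cargo along microtubules: the kinesins with their light chains, cytoplasmic dynein with its light chains, and dynactin. They were chosen by gene symbol, as the transcript clusters of a microarray that carry exactly 1 symbol and whose symbol is that of a kinesin, a kinesin light chain or the kinesin-associated protein Kifap3, a cytoplasmic dynein chain, or dynactin subunits Dctn1 to Dctn6. The rule found 67 genes, each with 1 cluster, among 18166 genes with such a cluster and 36685 clusters in all. A transcript cluster is the set of probes that the array design assigns to 1 locus. The symbols Dynll1, Dynlt4, Kif14, Kif17, Kif19, Kif19b, Kif1b and Kif21a, which the rule would also take, had no single-symbol cluster, and they were not analysed here.

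The cells were retinal ganglion cells, the neurons whose axons form the optic nerve, purified by immunopanning from postnatal day 4 Sprague Dawley rats. They were transfected with 1 of 3 constructs. In the wt-SetB group this was wild-type Set-β, a nuclear histone chaperone and inhibitor of protein phosphatase 2A. In the myr-SetB group it was myr-Set-β, named for myristoylation, a lipid modification that anchors proteins at membranes, and in the mCherry group it was a red fluorescent protein, the control. Every group, the control included, also received the pMAX-GFP plasmid, was sorted for green fluorescence on the following day and was then cultured on laminin, and RNA was extracted 3 days after transfection. Each group had 3 arrays, called biological replicates in the titles. Whether these came from separate litters or cultures is not stated in the labels, and the p-values below therefore cover only array-to-array spread, part of which may be technical. The sources used here name neither the promoter that drove the constructs nor the share of cells that took them up. No cluster carried the symbol Set, so the transfected gene could not be followed.

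Kinesins walk mostly toward the plus ends of microtubules, which in an axon point to the growth cone, and so carry vesicles, mitochondria and cytoskeletal proteins outward. Cytoplasmic dynein 1, with its activator dynactin, walks toward the minus ends and carries endosomes, survival signals and organelles back to the cell body. Other kinesins build the mitotic spindle and complete cell division, and are known mainly from dividing cells; some of them also act on microtubules in neurons. Dynein 2 works inside cilia.

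The promoters of the genes on either side of this division are shown first, because the axonal and the mitotic kinesins differ in the cell types that use them. RefSeq promoter windows (assembly GRCr8, 250 bases before to 50 after the annotated start) were available for 51 of the 67 genes, among them 11 of 12 mitotic and 9 of 11 axonal cargo kinesins. Each window was searched on both strands for the letters TTTGAA and TTCGAA, which are forms of the cell cycle homology element of late cell cycle genes, for CCAAT, the box bound by NF-Y, and for TGANTCA, the site of AP-1. TTTGAA stood in 6 of 11 mitotic kinesin promoters (54.5%), in 0 of 9 promoters of axonal cargo kinesins and in 18.1% of all 27457 promoters. CCAAT stood in 7 of 11 mitotic kinesin promoters (63.6%), in 2 of 9 promoters of axonal cargo kinesins (22.2%) and in 37.7% of all promoters. TTCGAA was in none of either group against 1.77% of all promoters, and TGANTCA was in 1 of 11 and 0 of 9 against 7.33% of all promoters. A match of letters is a description and not a binding site. The capitals mark TTTGAA and CCAAT, read in either orientation (ATTGG is CCAAT on the other strand, and TTCAAA would be TTTGAA). Kif23 lies at chr8:71320535-71320834 on the minus strand, Kif20a at chr18:26504172-26504471 on the plus strand, Kif5c at chr3:54441057-54441356 on the plus strand and Kif3a at chr10:38226520-38226819 on the plus strand. All 4 sequences run 5′ to 3′ in the direction of transcription.
Kif23: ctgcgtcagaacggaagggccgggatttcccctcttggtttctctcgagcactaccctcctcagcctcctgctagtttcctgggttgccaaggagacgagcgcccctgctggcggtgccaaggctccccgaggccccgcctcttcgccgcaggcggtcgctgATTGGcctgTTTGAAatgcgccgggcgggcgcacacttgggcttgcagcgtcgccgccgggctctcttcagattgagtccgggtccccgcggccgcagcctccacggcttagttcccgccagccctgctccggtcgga
Kif20a: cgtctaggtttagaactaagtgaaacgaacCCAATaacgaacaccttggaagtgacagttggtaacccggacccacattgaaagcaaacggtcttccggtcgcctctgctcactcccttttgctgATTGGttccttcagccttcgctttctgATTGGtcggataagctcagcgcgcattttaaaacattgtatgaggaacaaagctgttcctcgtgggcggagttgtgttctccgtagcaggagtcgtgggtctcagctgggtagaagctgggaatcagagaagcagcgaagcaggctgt
Kif5c: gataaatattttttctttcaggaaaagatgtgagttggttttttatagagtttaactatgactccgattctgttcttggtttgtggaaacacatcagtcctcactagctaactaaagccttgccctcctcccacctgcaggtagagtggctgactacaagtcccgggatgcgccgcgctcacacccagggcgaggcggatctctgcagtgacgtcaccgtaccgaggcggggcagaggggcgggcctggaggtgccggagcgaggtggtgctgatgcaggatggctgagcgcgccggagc
Kif3a: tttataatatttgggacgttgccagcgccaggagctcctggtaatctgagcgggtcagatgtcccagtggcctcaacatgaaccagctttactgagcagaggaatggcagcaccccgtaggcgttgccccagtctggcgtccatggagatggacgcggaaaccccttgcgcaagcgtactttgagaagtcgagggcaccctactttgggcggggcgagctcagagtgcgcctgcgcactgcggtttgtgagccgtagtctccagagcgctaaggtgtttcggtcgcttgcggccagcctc
Kif23 held 1 TTTGAA and 1 CCAAT, Kif20a held 3 CCAAT and no TTTGAA, and the axonal genes Kif5c and Kif3a held neither in this window.

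Levels are log2 of the deposited intensity, which the authors had scaled to a median of 100 on each array, and differences are differences of group means on that log2 scale. A probe's brightness depends on its sequence, so levels of different genes are not compared with each other. Differences were tested with limma on all 9 arrays, over the 18343 clusters whose mean log2 level was at least 6.65, with Benjamini-Hochberg adjustment over all of them. Of the motor genes 48 passed this filter and 19 did not. Background was read from 1128 clusters of odorant receptors, genes that these neurons are not known to use, whose median on an array was between 5.34 and 5.93. All 14 markers of ganglion cells lay above that median on all 9 arrays. Their array median was 8.58 ± 0.45 in wt-SetB, 8.35 ± 0.57 in myr-SetB and 9.09 ± 0.49 in mCherry (SD, n = 3 each), and that of 17 markers of dividing cells was 6.05 ± 0.16 in wt-SetB, 5.94 ± 0.11 in myr-SetB and 6.10 ± 0.09 in mCherry. In these bulk samples, fewer cells of a type and less RNA per cell cannot be told apart.

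The arrays differed in signal range, and the motors' values have to be read beside it. The log2 intensities at the 90th and the 10th percentile of an array lay apart by 4.16 ± 0.0471 in wt-SetB, 4.16 ± 0.318 in myr-SetB and 4.45 ± 0.146 in mCherry (SD, n = 3 each). The exact permutation test over arrays, two-sided, gave p = 0.1 for wt-SetB against mCherry, which no design of 3 against 3 arrays can go below, and p = 0.2 for myr-SetB against mCherry. Replicate 1 of myr-SetB had the narrowest range, 3.82, and replicate 1 of mCherry the widest, 4.54. Of the 21 tested genes of axonal cargo kinesins, dynein 1 and dynactin, 17 had their lowest level on replicate 1 of myr-SetB and 16 their highest on replicate 1 of mCherry. Over all 48 tested motor genes these counts were 29 and 26. The share of all tested clusters with an extreme level there was not computed, so no trait of the motors is read from these counts. Whether the signal range accounts for any difference below was not tested.

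Replicate 1 of every group also stood apart in markers of mural cells and fibroblasts, the cells of vessel walls and connective tissue. Tagln, an actin-binding protein of smooth muscle and mural cells, had 7.34, 11.89 and 11.89 in wt-SetB (replicates 1 to 3), 6.70, 12.01 and 12.59 in myr-SetB, and 7.93, 12.40 and 12.62 in mCherry. Vim, an intermediate filament mainly of non-neuronal cells, had 7.84, 11.15 and 11.79 in wt-SetB, 8.39, 11.42 and 12.04 in myr-SetB, and 8.60, 11.59 and 12.13 in mCherry. Of 11 mural, endothelial and fibroblast markers 7 were lower on all 3 arrays numbered 1 than on the other 6, by up to 4.91 log2 units for Tagln. So were 4 of 11 microglial and macrophage markers and 2 of the 67 motor genes. Among the glial and progenitor markers, the list that holds Vim, it was 2 of 13, and the median gap of that list was 0.01. The share of all clusters that did so was not computed. The labels do not say what a replicate number stands for. All 3 groups hold 1 such array each, and the medians of the main roles below are also given for replicates 2 and 3 alone, a fit added after seeing the data. The part of these cells in the motors' values was not tested.

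Within replicate 1 the 48 tested motor genes had a median difference from mCherry of -0.59 in wt-SetB and -1.14 in myr-SetB, beside -0.25 in wt-SetB and -0.36 in myr-SetB for all tested clusters. The tested clusters with 1 symbol, as each motor gene has, stood there at -0.39 in wt-SetB and -0.63 in myr-SetB. In replicates 2 and 3 the motors' median was -0.25 in wt-SetB and -0.07 in myr-SetB, beside -0.15 in wt-SetB and -0.05 in myr-SetB for all tested clusters. The clusters with 1 symbol had -0.22 in wt-SetB and -0.07 in myr-SetB, so the myr-SetB motors did not stand below them. In those replicates the mean was lower for 40 of 48 motor genes in wt-SetB and for 32 of 48 in myr-SetB. Among all 18343 tested clusters it was lower for 12145 in wt-SetB and 10991 in myr-SetB. Among the 10714 with 1 symbol it was lower for 8113 in wt-SetB and 6951 in myr-SetB. At an unadjusted p under 0.05 limma then had 5 motor genes in wt-SetB, all lower, and 0 in myr-SetB, and it called 0 clusters at an adjusted p of 0.05. The share of all clusters at that unadjusted level was not computed for this fit. The lower values of myr-SetB thus lay mostly in replicate 1, for the motors as for the clusters with 1 symbol.

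No motor gene passed the adjusted threshold in any comparison. For wt-SetB against mCherry, limma called 0 of 48 motor genes at an adjusted p of 0.05, as it called 0.0% of all clusters tested, and at an unadjusted p under 0.05 it had 5 motor genes, against 10.2% of all clusters. All 5 were lower and 0 higher, against 7.13% lower and 3.04% higher among all clusters. For myr-SetB against mCherry it called 0 of 48 (0.0% of all clusters), with 6 at an unadjusted p under 0.05, against 9.79% of all clusters. All 6 were lower and 0 higher, against 6.92% lower and 2.87% higher among all clusters. For myr-SetB against wt-SetB it called 0 of 48 (0.0% of all clusters) and had 0 at an unadjusted p under 0.05, against 1.13% of all clusters. The lowest adjusted p of a motor gene was 0.447 in both comparisons with mCherry.

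The mean was lower in wt-SetB than in mCherry for 42 of the 48 tested motor genes, against 65.5% of all tested clusters, with a median difference of -0.42 against -0.18. It was lower in myr-SetB than in mCherry for 39 of 48, against 63.9% of all tested clusters, with a median difference of -0.38 against -0.16. The 10714 tested clusters with 1 symbol, as each motor gene has, were lower for 77.2% in wt-SetB and 74.5% in myr-SetB, with medians of -0.29 in wt-SetB and -0.26 in myr-SetB. Both comparisons use the same mCherry arrays, so they are not independent of each other. Relative to the median of all tested clusters the motors' median was -0.24 in wt-SetB and -0.22 in myr-SetB. Quantile normalization, which gives all arrays the same distribution, moved the median of all clusters to -0.03 in both comparisons, and relative to it the motors' median was -0.15 in wt-SetB and -0.17 in myr-SetB. After cyclic loess it was -0.14 in wt-SetB and -0.13 in myr-SetB. Relative to the clusters with 1 symbol the motors' median was -0.13 in wt-SetB and -0.12 in myr-SetB at the deposited scaling, -0.06 in wt-SetB and -0.08 in myr-SetB after quantile normalization, and -0.06 in wt-SetB and -0.05 in myr-SetB after cyclic loess.

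**Figure D1:**
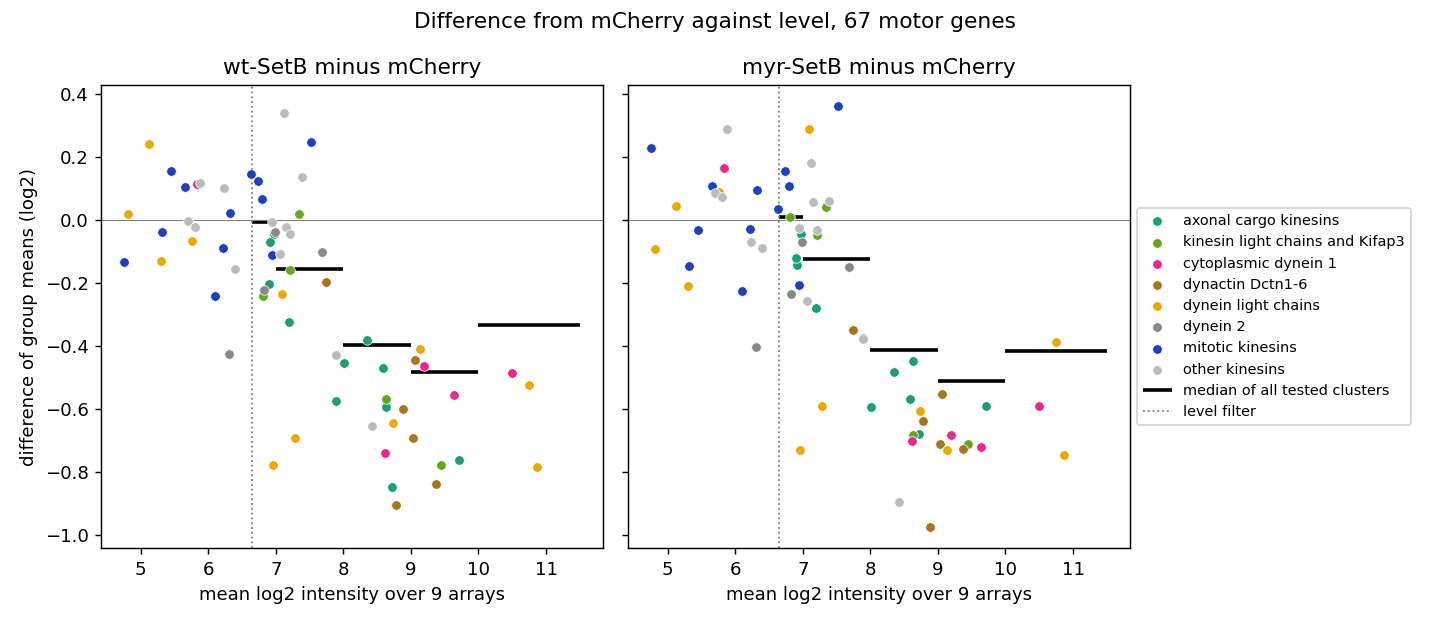
Difference of the wt-SetB (left) and myr-SetB (right) mean from the mCherry mean in log2 units, against the mean log2 intensity over 9 arrays, for the 67 motor genes coloured by role. Black bars are the medians of all tested clusters in each bin of level, and they lie near 0 below a log2 level of 7 and between -0.33 and -0.51 above 8, where most axonal motors, dynein 1 and dynactin lie.

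In both groups with Set-β the median difference of all tested clusters was further below 0 above a log2 level of 8 than below it. From 8 to 9, 2803 of 3742 clusters were lower in wt-SetB and 2800 in myr-SetB. Among the 3742 clusters with a mean log2 level of 8 to 9 the median difference was -0.40 in wt-SetB and -0.41 in myr-SetB, and the 11 motor genes of that level had medians of -0.60 in wt-SetB and -0.64 in myr-SetB. From 9 to 10 the 8 motor genes had -0.63 in wt-SetB and -0.71 in myr-SetB, beside -0.48 and -0.51 for the 1351 clusters of that level. From 7 to 8 the 15 motor genes had -0.11 in wt-SetB and -0.05 in myr-SetB, nearer to 0 than the -0.16 and -0.12 of all 8559 clusters. From 10 up the 3 motor genes had -0.52 in wt-SetB and -0.59 in myr-SetB, beside -0.33 and -0.42 for 943 clusters. Below 7 the 11 motor genes had -0.07 in both groups, beside -0.01 in wt-SetB and 0.01 in myr-SetB for 3748 clusters. These are descriptions of the arrays, and motor genes were not tested against other clusters of the same level.

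The axonal cargo kinesins comprised 11 genes, all past the filter. Kif5a, a heavy chain of kinesin-1 found in neurons, had 8.78, 8.42 and 7.94 on the wt-SetB arrays (replicates 1 to 3), 8.28, 8.38 and 8.92 on the myr-SetB arrays, and 9.57, 8.50 and 8.86 on the mCherry arrays. Its highest level was on mCherry replicate 1, and all 3 groups overlapped. The difference from mCherry was -0.60 ± 0.33 (SE) in wt-SetB and -0.45 ± 0.33 in myr-SetB, and without mCherry replicate 1 it was -0.30 in wt-SetB and -0.15 in myr-SetB. Kif5c, the other neuronal heavy chain, had 8.70, 8.41 and 8.25 in wt-SetB, 8.09, 8.42 and 8.57 in myr-SetB, and 9.37, 8.55 and 8.87 in mCherry. Each Set-β group overlapped mCherry only through its highest array and mCherry replicate 2. The difference in myr-SetB was -0.57 ± 0.25 (limma unadjusted p = 0.0465, adjusted p = 0.447), and that in wt-SetB was -0.47 ± 0.25. Without mCherry replicate 1 they were -0.35 in myr-SetB and -0.25 in wt-SetB. Kif5b, the heavy chain used by all cell types, had 9.14, 9.46 and 9.62 in wt-SetB, 8.54, 9.89 and 10.30 in myr-SetB, and 9.93, 10.003 and 10.57 in mCherry. Every wt-SetB array was below every mCherry array, while the myr-SetB arrays reached from below all of wt-SetB to within the range of mCherry. Its difference in myr-SetB, -0.59, was -0.07 without myr-SetB replicate 1.

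Kif1a, the kinesin-3 motor of synaptic vesicle precursors, had 8.48, 8.19 and 8.09 in wt-SetB, 7.88, 8.19 and 8.39 in myr-SetB, and 9.23, 8.31 and 8.38 in mCherry. All arrays other than mCherry replicate 1 lay between 7.88 and 8.48, and the differences were -0.38 ± 0.27 in wt-SetB and -0.48 ± 0.27 in myr-SetB. Without mCherry replicate 1 they were -0.09 in wt-SetB and -0.19 in myr-SetB. Kif3a, a motor subunit of kinesin-2 that serves both axons and cilia, had 8.89, 8.33 and 7.90 in wt-SetB, 7.94, 8.53 and 9.16 in myr-SetB, and 9.84, 8.71 and 9.11 in mCherry. Within groups its SD was 0.50 in wt-SetB, 0.61 in myr-SetB and 0.57 in mCherry. With all arrays its difference of -0.85 ± 0.40 in wt-SetB was the largest among the cargo kinesins in that comparison. Without mCherry replicate 1 it was -0.54 and no longer the largest, as Kif5b then stood at -0.88. Kif3b, its partner, had 7.80, 7.81 and 7.31 in wt-SetB against 8.39, 8.13 and 8.13 in mCherry, which did not overlap, and 7.29, 7.81 and 8.42 in myr-SetB. Kif3c, which also pairs with Kif3a, differed from mCherry by -0.45 ± 0.32 in wt-SetB and -0.59 ± 0.32 in myr-SetB.

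The remaining cargo kinesins, Kif1c, Kif13a, Kif13b and Kif16b of the kinesin-3 family, had differences between -0.32 and -0.04 in wt-SetB and between -0.28 and -0.05 in myr-SetB. All 11 cargo kinesins thus had a lower mean in both Set-β groups, except that Kif13b in wt-SetB stood at 0.01 after quantile normalization. So did 65.5% of all tested clusters in wt-SetB and 63.9% in myr-SetB. Of the tested clusters with 1 symbol 77.2% did in wt-SetB and 74.5% in myr-SetB, with medians of -0.29 in wt-SetB and -0.26 in myr-SetB. The cargo kinesins had medians of -0.45 in both groups. Their medians after quantile normalization were -0.18 in wt-SetB and -0.21 in myr-SetB. With 1 array left out they ran from -0.60 to -0.25 in wt-SetB and from -0.65 to -0.10 in myr-SetB. In replicates 2 and 3 they were -0.38 in wt-SetB and -0.05 in myr-SetB. Only Kif5b and Kif3b had groups that did not overlap in wt-SetB, and none did in myr-SetB, where 6.85% of all tested clusters did so in this direction against 26.4% in wt-SetB.

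**Figure D2:**
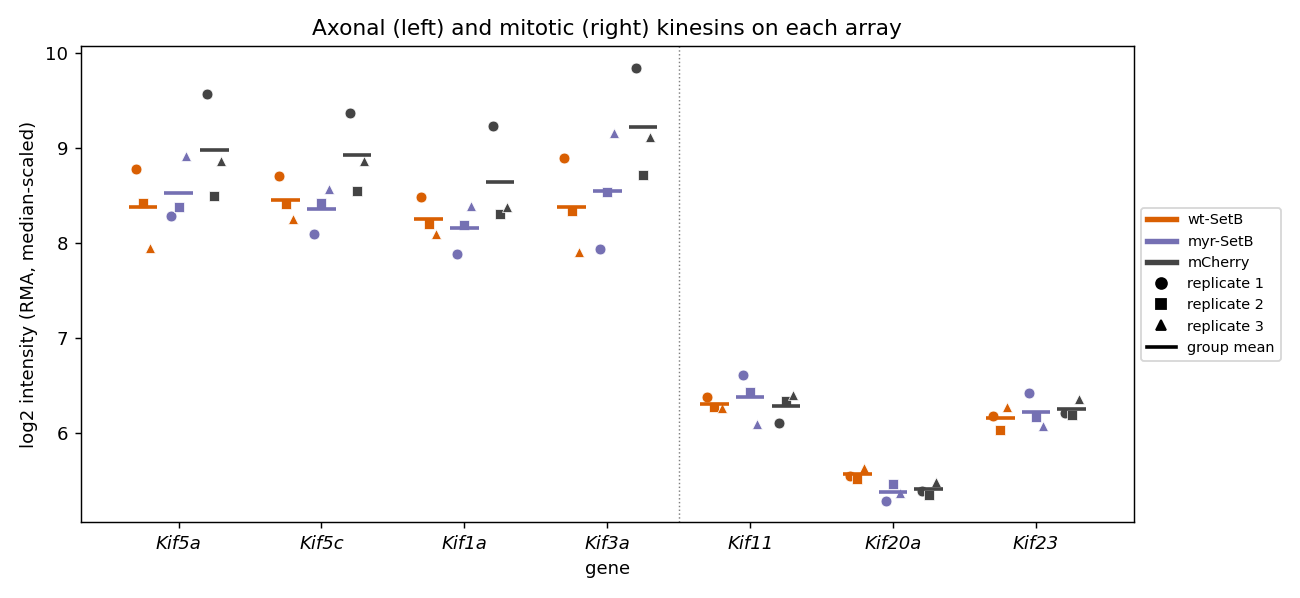
Log2 intensity of 4 axonal kinesins (left of the dotted line) and 3 mitotic kinesins (right) on each array, with symbols for the replicates and a bar for the group mean, in the order wt-SetB, myr-SetB and mCherry. The axonal genes have their highest value on mCherry replicate 1, and the group means of the mitotic genes lie within 0.19 log2 units of each other.

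Cargo reaches kinesin-1 through light chains and kinesin-2 through Kifap3. Klc1, the light chain most abundant in neurons, had 9.18, 9.33 and 8.96 in wt-SetB, 8.45, 9.39 and 9.84 in myr-SetB, and 10.21, 9.55 and 10.05 in mCherry. The wt-SetB arrays were all below the mCherry arrays, with a difference of -0.78 ± 0.34 (limma unadjusted p = 0.04999, adjusted p = 0.447), and in myr-SetB the difference was -0.71 ± 0.34 with overlap. Kifap3 had 8.61, 8.37 and 8.43 in wt-SetB, 7.66, 8.51 and 8.90 in myr-SetB, and 9.49, 8.77 and 8.87 in mCherry. Its wt-SetB arrays too lay below all mCherry arrays. The other light chains were nearer to 0, although the wt-SetB arrays of Klc2 and Klc4 too were all below mCherry. Thus 4 of these 5 genes had wt-SetB arrays all below mCherry, as did 26.4% of all tested clusters. In myr-SetB 0 of the 5 did, against 6.85% of all tested clusters. Klc2 and Klc4 differed from mCherry by -0.16 ± 0.17 and -0.24 ± 0.17 in wt-SetB and by -0.05 ± 0.17 and 0.01 ± 0.17 in myr-SetB, and Klc3 by 0.02 ± 0.15 in wt-SetB and 0.04 ± 0.15 in myr-SetB.

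Cytoplasmic dynein 1 carries cargo back to the cell body, and 4 of its 5 genes passed the filter. The heavy chain Dync1h1, which holds the motor, had 9.13, 9.13 and 9.09 in wt-SetB, 7.90, 9.18 and 9.60 in myr-SetB, and 10.03, 9.33 and 9.37 in mCherry. The wt-SetB arrays were nearly equal and all below mCherry, whereas myr-SetB held both the lowest array of all and 1 within the range of mCherry. The differences were -0.46 ± 0.40 in wt-SetB and -0.68 ± 0.40 in myr-SetB. That in wt-SetB was -0.24 without mCherry replicate 1, and that in myr-SetB was -0.19 without myr-SetB replicate 1 and -1.04 without myr-SetB replicate 3. In replicates 2 and 3 the myr-SetB difference turned to 0.04. The light intermediate chain Dync1li1, which binds cargo adaptors, had 9.60, 9.56 and 9.35 in wt-SetB, 8.82, 9.49 and 9.70 in myr-SetB, and 10.37, 9.70 and 10.11 in mCherry. Its difference was -0.72 ± 0.26 in myr-SetB (limma unadjusted p = 0.0234, adjusted p = 0.447), where replicate 3 just overlapped mCherry replicate 2, and -0.56 ± 0.26 in wt-SetB without overlap. Its paralog Dync1li2 and the intermediate chain Dync1i2 differed by -0.74 ± 0.38 and -0.49 ± 0.34 in wt-SetB and by -0.70 ± 0.38 and -0.59 ± 0.34 in myr-SetB.

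All 4 tested dynein 1 genes had wt-SetB arrays below every mCherry array, as 26.4% of all tested clusters did. Their medians of -0.52 in wt-SetB and -0.69 in myr-SetB became -0.20 in wt-SetB and -0.41 in myr-SetB after quantile normalization, and -0.16 in wt-SetB and -0.25 in myr-SetB after cyclic loess. With 1 array left out they ran from -0.68 to -0.39 in wt-SetB and from -0.91 to -0.25 in myr-SetB, and in replicates 2 and 3 they were -0.45 in wt-SetB and -0.07 in myr-SetB. Dync1i1, the intermediate chain typical of neurons, was the exception. It lay below the filter, with 6.28, 5.65 and 5.65 in wt-SetB, 5.79, 5.72 and 6.22 in myr-SetB, and 6.44, 4.84 and 5.96 in mCherry, and mCherry replicate 2 and myr-SetB replicate 1 were below the odorant receptor median of their array.

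Dynactin, the activator that couples dynein to cargo, had all of Dctn1 to Dctn6 past the filter. Dctn2, the dynamitin subunit that joins the arm of the complex to its filament, had 8.44, 8.33 and 8.40 in wt-SetB, 7.89, 8.77 and 9.30 in myr-SetB, and 9.44, 9.06 and 9.39 in mCherry. Every wt-SetB array was below every mCherry array, and the difference was -0.91 ± 0.32 (limma unadjusted p = 0.0202, adjusted p = 0.447). In myr-SetB it was -0.64 ± 0.32, with replicate 3 within the range of mCherry. Dctn3, a small subunit of the arm, had 8.76, 9.02 and 8.63 in wt-SetB, 8.25, 8.89 and 9.21 in myr-SetB, and 9.82, 9.10 and 9.57 in mCherry. It was the dynactin gene with an unadjusted p under 0.05 in both comparisons, at -0.69 ± 0.28 in wt-SetB (limma unadjusted p = 0.0367, adjusted p = 0.447) and -0.71 ± 0.28 in myr-SetB (limma unadjusted p = 0.0330, adjusted p = 0.447).

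Dctn5, which sits at the pointed end of the filament, had 8.87, 8.76 and 8.78 in wt-SetB, 7.62, 8.64 and 9.02 in myr-SetB, and 9.72, 9.16 and 9.32 in mCherry. Both Set-β groups were below every mCherry array. The difference in myr-SetB, -0.98 ± 0.33 (limma unadjusted p = 0.0168, adjusted p = 0.447), was the largest of any motor gene in that comparison, and it was -0.57 with myr-SetB replicate 1 left out and -0.41 in replicates 2 and 3. Dctn6, its partner at the pointed end, differed by -0.84 ± 0.38 in wt-SetB, without overlap, and by -0.73 ± 0.38 in myr-SetB. Dctn4, also of the pointed end, differed by -0.45 ± 0.32 in wt-SetB and -0.55 ± 0.32 in myr-SetB. Dctn1, the large subunit that binds microtubules and dynein, had 7.71, 7.65 and 7.83 in wt-SetB, 7.50, 7.32 and 7.90 in myr-SetB, and 8.12, 7.78 and 7.88 in mCherry. Its mean was lower in both Set-β groups, at -0.20 ± 0.19 in wt-SetB and -0.35 ± 0.19 in myr-SetB, but the wt-SetB value was 0.02 after quantile normalization and 0.01 after cyclic loess. The dynactin median was -0.65 in wt-SetB and -0.68 in myr-SetB, and -0.30 in wt-SetB and -0.38 in myr-SetB after quantile normalization, and -0.28 in wt-SetB and -0.25 in myr-SetB after cyclic loess. With 1 array left out it ran from -0.81 to -0.49 in wt-SetB and from -0.94 to -0.32 in myr-SetB. In replicates 2 and 3 it was -0.49 in wt-SetB and -0.21 in myr-SetB, with 6 of 6 genes lower in both. Of the 18343 tested clusters 12145 were lower in wt-SetB and 10991 in myr-SetB in those replicates. Among the 10714 with 1 symbol it was 8113 in wt-SetB and 6951 in myr-SetB.

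The dynein light chains are small subunits, several of which also bind other proteins, and 7 of 11 passed the filter. Dynlt1, a light chain of the Tctex family, had 10.89, 10.78 and 10.11 in wt-SetB, 10.23, 10.58 and 11.08 in myr-SetB, and 11.54, 11.39 and 11.20 in mCherry. It was below all mCherry arrays in both Set-β groups, by -0.78 ± 0.28 in wt-SetB (limma unadjusted p = 0.0195, adjusted p = 0.447) and -0.75 ± 0.28 in myr-SetB (limma unadjusted p = 0.0242, adjusted p = 0.447). Dynll2, of the LC8 family, had 8.83, 8.42 and 8.30 in wt-SetB, 8.27, 8.52 and 8.86 in myr-SetB, and 9.63, 8.78 and 9.06 in mCherry. Its highest Set-β arrays overlapped only mCherry replicate 2, and the differences were -0.65 ± 0.27 in wt-SetB (limma unadjusted p = 0.0388, adjusted p = 0.447) and -0.61 ± 0.27 in myr-SetB (limma unadjusted p = 0.0491, adjusted p = 0.447). Dynlrb1, of the roadblock family, differed by -0.52 ± 0.27 in wt-SetB and -0.39 ± 0.27 in myr-SetB, where it was 0.07 after cyclic loess.

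Dynlt3 and Dynlt2b had differences of -0.41 ± 0.53 and -0.69 ± 0.33 in wt-SetB and of -0.73 ± 0.53 and -0.59 ± 0.33 in myr-SetB. The symbols Dynll1l, Dynll1l1 and Dynll1l2 name near-identical relatives of Dynll1, so their probes cannot be assigned to 1 gene with certainty. Dynll1l1 differed by -0.78 ± 0.49 in wt-SetB, without overlap, and by -0.73 ± 0.49 in myr-SetB. All 7 tested light chains had a lower mean in wt-SetB, where 77.2% of the tested clusters with 1 symbol did so. Dynll1l2 was the 1 of 7 with a higher mean in myr-SetB. It had 6.73, 6.93 and 6.88 in wt-SetB, 7.78, 7.25 and 7.08 in myr-SetB, and 7.09, 7.47 and 6.68 in mCherry. It was 0.29 ± 0.25 higher in myr-SetB than in mCherry and -0.23 ± 0.25 in wt-SetB, with overlap in both, and the myr-SetB difference was 0.08 without myr-SetB replicate 1. Of the 4 genes with a Dync2 symbol, which name chains of dynein 2, the motor of cilia, 3 passed the filter. Their differences ran from -0.22 to -0.04 in wt-SetB and from -0.24 to -0.07 in myr-SetB. Light chains were grouped by symbol, so any that serve dynein 2 are counted among the light chains and not here. After quantile normalization Dync2i1 and Dync2i2 stood above 0 in wt-SetB, at 0.01 and 0.09, and Dync2i2 also in myr-SetB, at 0.02.

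**Figure D3:**
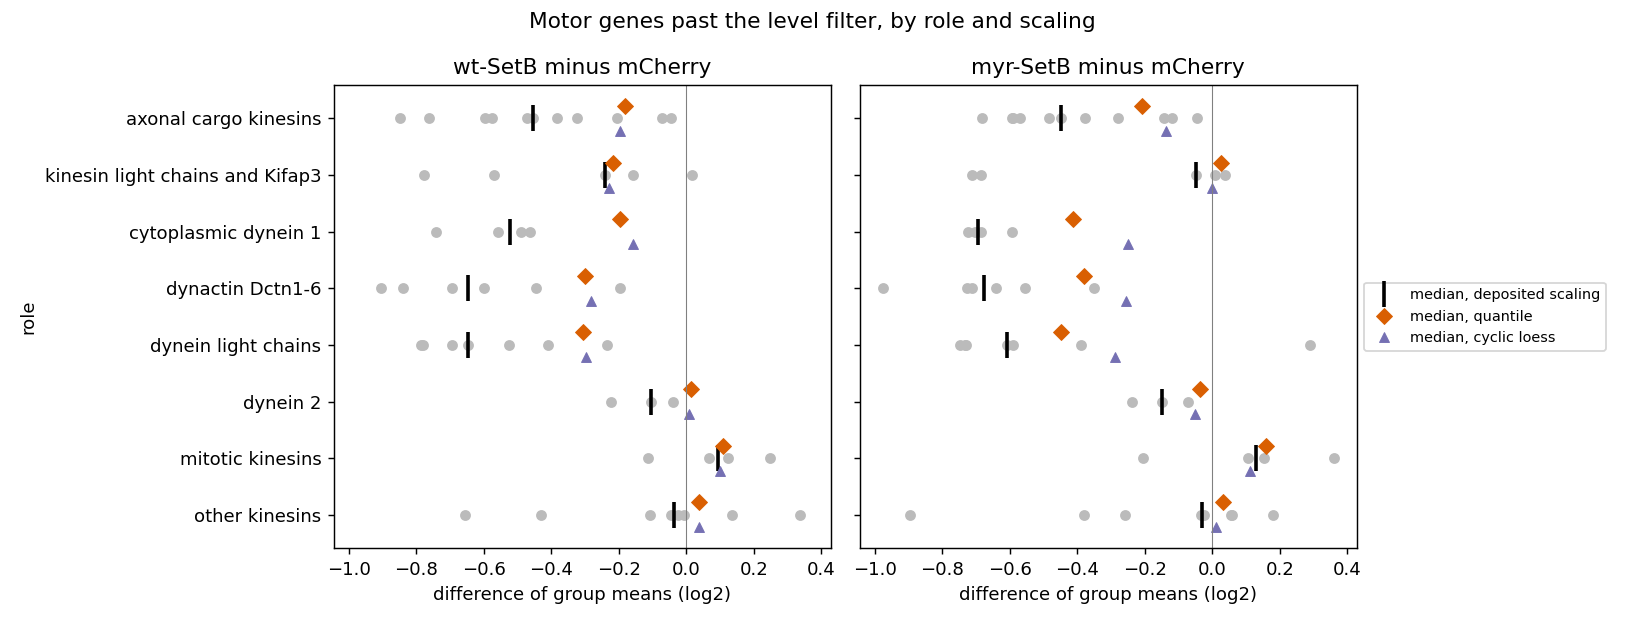
Differences of the wt-SetB (left) and myr-SetB (right) means from the mCherry mean in log2 units for the 48 motor genes past the level filter, by role, with 1 grey point per gene. Bars are the medians at the deposited scaling, diamonds those after quantile normalization and triangles those after cyclic loess, which lie nearer to 0 for the transport motors.

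Of the 12 mitotic kinesins, 8 lay below the filter, among them Kif11, Kif20a and Kif23, so those 3 have levels and no test in the fit above. On at least 1 array 5 of the 12 were below the odorant receptor median, while Kif11 and Kif23 were above it on all 9 arrays. Kif11, which pushes spindle poles apart and also acts on axonal microtubules, had 6.38, 6.27 and 6.27 in wt-SetB, 6.61, 6.43 and 6.09 in myr-SetB, and 6.11, 6.33 and 6.40 in mCherry. The groups overlapped, and the differences from mCherry were 0.02 in wt-SetB and 0.10 in myr-SetB. Kif23, a subunit of the centralspindlin complex of cytokinesis, had 6.18, 6.03 and 6.28 in wt-SetB, 6.43, 6.17 and 6.07 in myr-SetB, and 6.21, 6.19 and 6.36 in mCherry. Here too all groups overlapped. Kif20a, a kinesin of the midzone of dividing cells, had 5.55, 5.52 and 5.63 in wt-SetB, 5.29, 5.46 and 5.37 in myr-SetB, and 5.39, 5.34 and 5.49 in mCherry. It was below the odorant receptor median on 7 of 9 arrays, and its wt-SetB arrays were above all others by small amounts, 0.16 over the mCherry mean. Kif20b, Dynlrb2 and Dynlt5 were below that median on all 9 arrays.

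Kif15, Kif22, Kif4b and Kifc1 were the mitotic kinesins past the filter. Kif4b, a relative of the chromosome-associated kinesin Kif4a, had 7.54, 7.48 and 7.66 in wt-SetB, 7.90, 7.65 and 7.48 in myr-SetB, and 7.11, 7.60 and 7.22 in mCherry. It was 0.25 ± 0.19 higher in wt-SetB and 0.36 ± 0.19 higher in myr-SetB than in mCherry, with overlap through mCherry replicate 2. Kif22, which moves chromosomes, was 0.12 ± 0.25 higher in wt-SetB and 0.15 ± 0.25 higher in myr-SetB. Kifc1, a minus-end spindle motor, was 0.07 ± 0.17 higher in wt-SetB and 0.11 ± 0.17 higher in myr-SetB. Kif15, a spindle kinesin, stood at -0.11 ± 0.19 in wt-SetB and -0.21 ± 0.19 in myr-SetB. No limma p of these 4 genes was under 0.05, unadjusted, in either comparison.

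The median difference of the 4 tested mitotic kinesins was 0.09 in wt-SetB and 0.13 in myr-SetB. With 1 array left out it ran from -0.03 to 0.15 in wt-SetB, turning its sign, and from 0.0039 to 0.20 in myr-SetB. Over all 12 it was 0.04 in wt-SetB and 0.06 in myr-SetB. The separation of mitotic from axonal kinesins in these comparisons is in part also a separation by level. Mean log2 levels were 6.90 to 9.72 for the 11 cargo kinesins and 4.76 to 7.52 for the 12 mitotic ones, which overlap. The range over the 9 arrays was 0.41 to 2.03 log2 units for the cargo kinesins (median 1.28) and 0.29 to 0.94 for the mitotic ones (median 0.55). Whether the kinds of kinesin differ in their response beyond this difference in level was not tested.

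**Figure D4:**
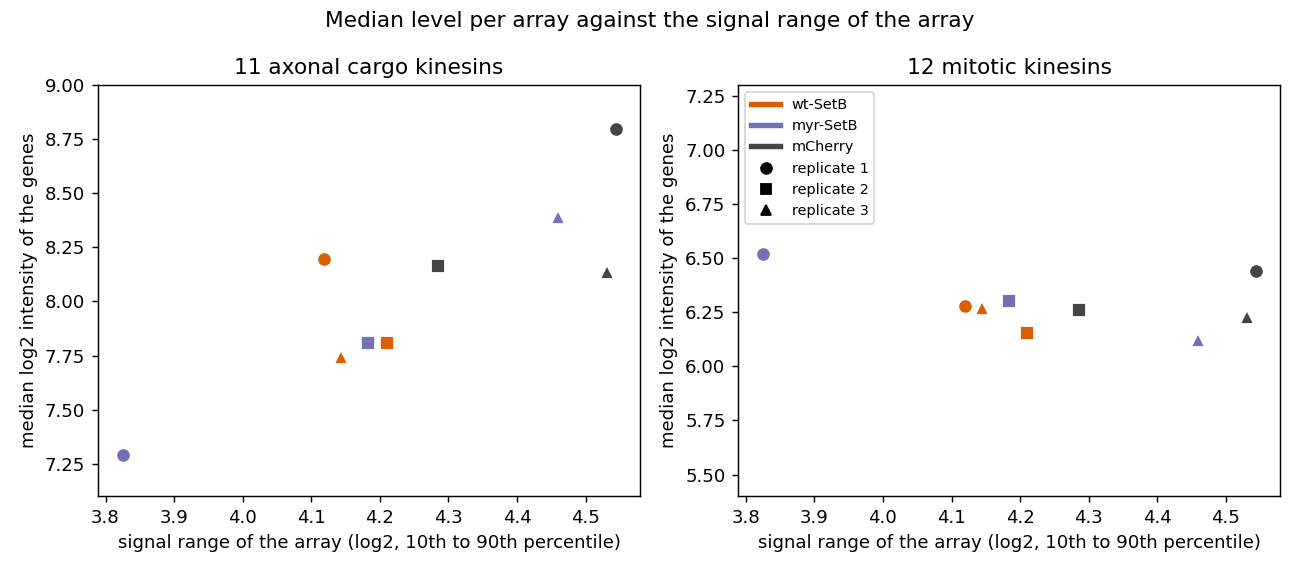
Median log2 intensity of the 11 axonal cargo kinesins (left) and the 12 mitotic kinesins (right) on each array, against the signal range of that array (90th minus 10th percentile). The cargo kinesins have their lowest median, 7.29, on the array of the narrowest range, myr-SetB replicate 1, and their highest, 8.79, on that of the widest, mCherry replicate 1, and the mitotic kinesins lie between 6.12 and 6.52.

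Array by array, the median of the 11 cargo kinesins was 8.20, 7.81 and 7.74 in wt-SetB, 7.29, 7.81 and 8.39 in myr-SetB, and 8.79, 8.16 and 8.14 in mCherry. The myr-SetB arrays therefore spanned more than the difference between any of the groups. The median of the 12 mitotic kinesins was 6.28, 6.15 and 6.27 in wt-SetB, 6.52, 6.30 and 6.12 in myr-SetB, and 6.44, 6.26 and 6.23 in mCherry, and within myr-SetB its order over the arrays was the opposite of that of the cargo kinesins.

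Among the other kinesins, 8 of 13 passed the filter. Kif2a, which depolymerises microtubule ends and prunes axon branches, had 8.37, 8.16 and 8.32 in wt-SetB, 7.22, 8.16 and 8.75 in myr-SetB, and 9.36, 8.26 and 9.20 in mCherry. Its differences were -0.66 ± 0.40 in wt-SetB and -0.90 ± 0.40 in myr-SetB, and mCherry replicate 2 lay among the Set-β arrays. Kif26a, a kinesin without motor activity, had 7.11, 7.33 and 7.43 in wt-SetB, 7.27, 7.12 and 7.01 in myr-SetB, and 6.77, 6.98 and 7.11 in mCherry. It was the motor gene with the largest higher value in wt-SetB, 0.34 ± 0.17 (0.18 ± 0.17 in myr-SetB), and the only tested one whose wt-SetB arrays were above all mCherry arrays, by a margin under 0.01, where 7.31% of all tested clusters did so. Kif12 was 0.13 ± 0.15 higher in wt-SetB, and Kifc3, a minus-end kinesin, differed from mCherry by -0.26 ± 0.15 in myr-SetB without overlap.

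Counted over all roles, 16 of the 48 tested motor genes had wt-SetB arrays that were all below the mCherry arrays (33.3%, against 26.4% of all tested clusters), and 3 had myr-SetB arrays that were (6.25%, against 6.85%). The 3 were Dctn5, Dynlt1 and Kifc3, and 0 of 48 had myr-SetB arrays all above mCherry, against 4.55% of all tested clusters. The count of motor genes with an unadjusted p under 0.05 depended on single arrays. For wt-SetB against mCherry the 5 genes became 0 without mCherry replicate 1, 1 without mCherry replicate 3 or wt-SetB replicate 3, 2 without wt-SetB replicate 2 or myr-SetB replicate 2, and 13, 16 and 9 without mCherry replicate 2, myr-SetB replicate 1 and myr-SetB replicate 3. For myr-SetB against mCherry the 6 genes became 0 without mCherry replicate 1, 1 without myr-SetB replicate 1, 2 without mCherry replicate 3 or myr-SetB replicate 2, and 10 and 20 without mCherry replicate 2 and myr-SetB replicate 3. No motor gene reached an adjusted p under 0.05 in any of these fits. The share of all tested clusters at an unadjusted p under 0.05 was not computed for them, so the counts are not read as a result about motors. Without myr-SetB replicate 1 the myr-SetB differences were also nearer to 0 for Dctn3 (-0.45), Dync1li1 (-0.46), Kif3a (-0.38), Kif3b (-0.10), Kifap3 (-0.34) and Klc1 (-0.32).

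Motors pick up cargo through adaptors. A list of 34 adaptors, regulators and other dynactin subunits, such as Actr10 and Actr1b, had 31 genes with a cluster, 29 of them past the filter. In wt-SetB 27 of 29 had a lower mean than in mCherry, against 65.5% of all tested clusters, with a median of -0.41 and 4 at an unadjusted p under 0.05, against 10.2%. In myr-SetB 25 of 29 did, against 63.9% of all tested clusters, with a median of -0.41 and 3 at that level, against 9.79%. The tested clusters with 1 symbol were lower for 77.2% in wt-SetB and 74.5% in myr-SetB, with medians of -0.29 in wt-SetB and -0.26 in myr-SetB. In replicates 2 and 3 the medians of the 29 listed genes were -0.31 in wt-SetB and -0.12 in myr-SetB. The tested clusters with 1 symbol had -0.22 in wt-SetB and -0.07 in myr-SetB in those replicates. After quantile normalization the mean was lower for 22 of 29 in wt-SetB and 22 of 29 in myr-SetB. The share of all clusters lower at that scaling was not computed. The clusters with 1 symbol then had medians of -0.11 in wt-SetB and -0.13 in myr-SetB. No gene of this list passed limma's adjusted threshold. Mapk8ip2, a JNK scaffold that binds kinesin light chains, had 7.40, 7.65 and 7.26 in wt-SetB, 7.28, 7.71 and 7.91 in myr-SetB, and 8.76, 8.30 and 8.01 in mCherry. Both Set-β groups were below every mCherry array, at -0.92 ± 0.25 in wt-SetB (limma unadjusted p = 0.00484, adjusted p = 0.447) and -0.72 ± 0.25 in myr-SetB (limma unadjusted p = 0.0172, adjusted p = 0.447). Trak2, which links kinesin-1 and dynein to mitochondria, differed by -0.70 ± 0.26 in wt-SetB, and Actr10, the actin-related protein at dynactin's pointed end, by -0.89 ± 0.36 in myr-SetB, each without overlap.

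Between the membrane-targeted and the wild-type form, the motors had a median difference (myr-SetB minus wt-SetB) of 0.02, against 0.01 for all tested clusters, with 25 of 48 higher and 23 lower. It was -0.02 after quantile normalization and ran from -0.12 to 0.16 with 1 array left out. Within replicate 1 it was -0.44, with 39 of 48 lower, and in replicates 2 and 3 it was 0.19, with 12 of 48 lower, beside -0.14 and 0.10 for all tested clusters. Of those 18343 clusters 11456 were lower in replicate 1 and 6509 in replicates 2 and 3. The 10714 tested clusters with 1 symbol had -0.21 in replicate 1, with 7420 lower. They had 0.14 in replicates 2 and 3, with 2961 lower. At an unadjusted p under 0.05 limma had 2 motor genes in replicates 2 and 3, both higher, and the share of all clusters was not computed for that fit. Dynll1l2 was higher in myr-SetB, at 7.78, 7.25 and 7.08, against 6.73, 6.93 and 6.88 in wt-SetB, a difference of 0.52 ± 0.25 with a 95% interval of -0.05 to 1.09. It was 1 of 48 tested motor genes whose myr-SetB arrays were all above the wt-SetB arrays, against 2.63% of all tested clusters, and Kifc3, at -0.15 ± 0.15, was 1 of 48 whose arrays were all below, against 1.76%. In either direction 4.39% of all tested clusters were without overlap. The light chain Klc4 stood at 0.25 ± 0.17 (95% interval -0.13 to 0.63) and Klc2 at 0.11 ± 0.17. Dctn2 stood at 0.26 ± 0.32 (-0.46 to 0.99) and Kif3b at 0.20 ± 0.29.

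Lower values in myr-SetB were those of Dctn5, at -0.38 ± 0.33 (95% interval -1.13 to 0.38), Dync1li1, at -0.17 ± 0.26, Kif26a, at -0.16 ± 0.17, and Dctn1, at -0.15 ± 0.19. Of the list of adaptors and other dynactin subunits, Mapk8ip1, a scaffold that binds kinesin-1, stood at -0.46 ± 0.27. Actr1b, a filament subunit of dynactin, stood at -0.22 ± 0.20. The limma adjusted p was 0.9998 for each of these. The intervals of 8 of the 48 motor genes reached beyond a difference of 1 log2 unit, so the forms of Set-β are not shown to act alike on them. In the comparisons with mCherry the same held for 25 of 48 genes in each.

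Markers of other cell types are given beside these values. The array medians of glial and progenitor markers were 6.21 ± 0.19 in wt-SetB, 6.29 ± 0.18 in myr-SetB and 6.24 ± 0.06 in mCherry over 13 genes. Those of microglial and macrophage markers were 7.13 ± 0.42 in wt-SetB, 7.08 ± 0.10 in myr-SetB and 6.84 ± 0.15 in mCherry over 11 genes. Of the 8 microglial genes tested, 6 had a higher and 2 a lower mean in each comparison with mCherry. Their differences ran from -0.52 to 0.73 in wt-SetB (median 0.08) and from -1.48 to 0.68 in myr-SetB (median 0.04). Only Cx3cr1 and C1qa were higher in both Set-β groups at an unadjusted p under 0.05. Of all tested clusters 3.04% were higher at that level in wt-SetB and 2.87% in myr-SetB. Cx3cr1, the fractalkine receptor of microglia, stood at 0.73 in wt-SetB (limma unadjusted p = 0.00439, adjusted p = 0.447) and 0.68 in myr-SetB (limma unadjusted p = 0.00636, adjusted p = 0.447). C1qa, a complement subunit, stood at 0.62 in wt-SetB (limma unadjusted p = 0.0313, adjusted p = 0.447) and 0.66 in myr-SetB (limma unadjusted p = 0.0249, adjusted p = 0.447). Mural, endothelial and fibroblast markers had 7.31 ± 0.44 in wt-SetB, 7.36 ± 0.60 in myr-SetB and 7.44 ± 0.74 in mCherry over 11 genes. Amacrine and horizontal cell markers had 6.43 ± 0.19 in wt-SetB, 6.60 ± 0.04 in myr-SetB and 6.56 ± 0.02 in mCherry over 10 genes. The ganglion cell markers were lower in both Set-β groups for 14 of 14 genes, against 65.5% of all tested clusters in wt-SetB and 63.9% in myr-SetB, with medians of -0.53 in wt-SetB and -0.55 in myr-SetB. Tested clusters with 1 symbol were lower for 77.2% in wt-SetB and 74.5% in myr-SetB, with medians of -0.29 in wt-SetB and -0.26 in myr-SetB. Of the 6036 clusters with a mean log2 level of 8 or more, 4527 were lower in wt-SetB and 4541 in myr-SetB, with medians of -0.41 in wt-SetB and -0.44 in myr-SetB. In replicates 2 and 3 the ganglion markers were lower for 13 of 14 in wt-SetB and 11 of 14 in myr-SetB, with medians of -0.36 in wt-SetB and -0.19 in myr-SetB. Of the 18343 tested clusters 12145 were lower in wt-SetB and 10991 in myr-SetB in those replicates. Among the 10714 with 1 symbol it was 8113 in wt-SetB and 6951 in myr-SetB. After quantile normalization 13 of 14 in wt-SetB and 14 of 14 in myr-SetB had a lower mean, and after cyclic loess 13 of 14 in wt-SetB and 10 of 14 in myr-SetB did. The share of all clusters lower at these scalings was not computed. Clusters with 1 symbol had medians of -0.11 in wt-SetB and -0.13 in myr-SetB after quantile normalization. After cyclic loess these medians were -0.11 in wt-SetB and -0.09 in myr-SetB. The part of any of these cell types in the motors' values was not tested.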

How the data were processed

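Amplified cDNA was hybridised to Rat Gene 2.0 ST arrays, and its image data went through Affymetrix Expression Console with RMA (background correction, normalization and summary of probes), per the design text and the submitters' processing notes, which give no versions. The deposited values are linear intensity, scaled by the authors so that every array has a median of 100. That step leaves the spread of each array free. Precision is limited by the number of arrays.

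GEO's platform annotation gave 18511 clusters 1 symbol, 575 several and 17599 none. Intensities were log2-transformed, and group means of all 9 arrays were fitted with limma 3.58.1 in R 4.3.3, two-sided (6 residual and 2.82 prior degrees of freedom). The alternatives were quantile normalization, cyclic loess, other filters, a replicate block, array weights, fits of 2 groups and leaving out each array, with gene-by-gene weights and a fit of replicates 2 and 3 alone added after seeing the data. On simulated data with 18343 clusters the fit recovered, of simulated differences of 1 and 2 log2 units, 27% and 71% for wt-SetB against mCherry, 27% and 76% for myr-SetB against mCherry, and 31% and 76% between the forms. False calls were 9, 4 and 6. The simulated noise was normal, independent between clusters and of the same SD on all arrays. The real arrays differed in signal range, and recovery under such differences was not simulated.

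The motor genes, their roles and the lists were chosen with earlier results of these data known. Genes named were Kif11, Kif20a, Kif23, Kif5a, Kif5b, Kif5c, Kif1a, Kif3a, Kif3b, Kifap3, Klc1, Dync1h1, Dync1i1 and Dctn1, the 5 tested members of smallest p per comparison and direction, and the 2 genes of smallest p per comparison in the list of adaptors, regulators and other dynactin subunits. Members named beyond these were chosen to complete their role after their values were seen.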

Additional observations from a re-analysis of the deposited data

How the results depend on the processing

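No motor gene was called by limma in any comparison, except with array weights, which called 16 motor genes and 5903 clusters for myr-SetB against mCherry and 2 and 1270 between the forms; that estimate did not converge and gave myr-SetB replicate 2 a weight of 165 against 0.151 to 1.68 for the others. Gene-by-gene weights and a fit of replicates 2 and 3 alone, both added after seeing the data, called none. The count at an unadjusted p under 0.05 for wt-SetB against mCherry (5) was 1 with quantile normalization, 20 with array weights, 18 with gene-by-gene weights, 15 with only the 2 groups fitted and 0 to 16 with 1 array left out. For myr-SetB against mCherry (6) it was 2 with quantile normalization, 1 with cyclic loess, 25 with array weights, 11 with gene-by-gene weights, 3 with only the 2 groups, 0 with replicates 2 and 3 alone and 0 to 20 with 1 array left out. Between the forms (0) it was 7 with array weights, 1 with gene-by-gene weights, 1 without a filter, 2 with replicates 2 and 3 alone and 0 to 3 with 1 array left out. The share of all clusters at that unadjusted level was not computed for these alternatives.

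The median over tested motors in wt-SetB (-0.42) was -0.17 with quantile normalization, -0.17 with cyclic loess, -0.20 without a filter and -0.56 to -0.24 with 1 array left out. In myr-SetB (-0.38) it was -0.14 with cyclic loess, -0.62 with a filter at the 75th percentile, -0.0714 with replicates 2 and 3 alone, and -0.60 to -0.19 with 1 array left out. The sign turned for Dctn1 in wt-SetB (0.0225 with quantile normalization, 0.0133 with cyclic loess) and for Klc2 between the forms (-0.053 with array weights). With replicates 2 and 3 alone it turned for Dync1h1 in myr-SetB (0.0365) and, between the forms, for Dctn5 (0.0601) and Dync1li1 (0.1421). With 1 array left out it turned for Kif22 (-0.0858 to 0.31 in wt-SetB, -0.0543 to 0.34 in myr-SetB) and Kifc1 in myr-SetB (-0.0021 to 0.22), and between the forms for Dctn2 (-0.0602 to 0.65), Dctn5 (-0.67 to 0.0273), Dync1li1 (-0.35 to 0.0952), Kif3b (-0.0902 to 0.47) and Klc2 (-0.0248 to 0.20). The cause was not tested.

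Of 9 pairs of arrays with the same replicate number, 5 had deviations that correlated above 0.1 (range -0.07 to 0.38). Pairs with different numbers ran from -0.40 to 0.36. The main fit did not take the numbers to pair the samples, but these correlations cannot show that the samples are unpaired. Markers of mural cells set replicate 1 apart in all groups. With the replicate block the counts at an unadjusted p under 0.05 were 5, 5 and 0, and 0 clusters were called.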
